A study of Mus musculus with 12 samples.

Results

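The genes of the mitochondrial ribosome, the mitoribosome, were followed in mouse liver tumours and in non-tumour liver. Members were the genes whose name in the deposited count table starts with Mrpl or Mrps and a digit. They numbered 77 of 24421 genes in the table, 48 named Mrpl and 29 named Mrps, on 17 chromosomes. All 77 passed a filter on low counts that kept 14443 genes for testing. The livers came from C57BL/6 mice aged 15 months, with 3 libraries in each of 4 groups. Both genotypes lack Atg7, a gene needed to form autophagosomes. The group called Atg7KO carries that knockout alone, and the group called DKO lacks Hmgb1, a chromatin and danger-signal protein, as well. From each genotype 3 tumour and 3 non-tumour pieces of liver were sequenced. No wild-type liver is among the libraries used here, so every group carries the Atg7 knockout. The labels name no promoter or cell type that drives the deletions. They also leave unsaid whether each library is a mouse of its own, and tumour and non-tumour libraries of a genotype carry the same numbers in their titles, so some may share a mouse. The p-values here cover the variation among these libraries, which may be technical.

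Mitochondria keep their own ribosome to translate the few proteins encoded in mitochondrial DNA, all of them subunits of the respiratory chain and ATP synthase. Its RNAs are mitochondrial, but every protein of its large and small subunits is encoded in the nucleus, made in the cytosol and imported. Some of these proteins have a bacterial counterpart, and others were gained by mitochondria. Liver cells are rich in mitochondria, and autophagy of mitochondria is one route by which they are removed. The 77 proteins were assigned to the subunits by name, 50 to the large and 27 to the small subunit. Mrps30 and Mrps18a were placed in the large subunit by general knowledge, despite their names. Whether each named protein, Mrps36 for instance, is in fact part of the ribosome was not checked. A bacterial counterpart is known for 47, and 30 are specific to mitochondria.

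Promoters of RefSeq (GRCm38.p6, 250 bases before to 50 after each start) could be matched for 68 of the 77 genes. Not matched were Mrpl4, Mrpl13, Mrpl15, Mrpl19, Mrpl38, Mrpl54, Mrps28, Mrps34 and Mrps35. On both strands 5 short motifs were searched, none of which contains another. The letters GCGCATG, a core of the NRF1 motif, occurred in 8 of the 68 promoters (11.8%), against 4.0% of 27025 mouse promoters of the same length. The ETS motif CCGGAAG occurred in 24 (35.3%, against 9.1%), and GATGGCG, a core of the YY1 motif, in 8 (11.8%, against 3.7%). The E-box CACGTG was found in 5 (7.4%, against 7.2%) and CCAAT in 27 (39.7%, against 37.9%). NRF1, the ETS factor GABP and YY1 are known regulators of nuclear genes for mitochondria. A match is a description of letters, not a site of binding, and the 27025 promoters include those of genes that liver does not use. The 6 promoters printed here belong to members that the comparisons turn on. Capitals mark NRF1, ETS and YY1 letters: Mrpl32 has 5 matches to the NRF1 core, Mrpl53 has 2 ETS matches, and Mrps18a has 1 ETS and 1 YY1 match. The windows of Mrpl12, Mrpl41 and Mrps10 hold none of these 3 strings. The start matched for Mrps10 lies 310 bases from the 5′ end of its gene model in the count table. Its window therefore falls inside that model, and bases before the model were not searched. For Mrps23 the matched start lies 10282 bases from the model's 5′ end. Each printed promoter is written 5′ to 3′ on the strand of its gene.
Mrpl12, chr11:120484387-120484686, plus strand: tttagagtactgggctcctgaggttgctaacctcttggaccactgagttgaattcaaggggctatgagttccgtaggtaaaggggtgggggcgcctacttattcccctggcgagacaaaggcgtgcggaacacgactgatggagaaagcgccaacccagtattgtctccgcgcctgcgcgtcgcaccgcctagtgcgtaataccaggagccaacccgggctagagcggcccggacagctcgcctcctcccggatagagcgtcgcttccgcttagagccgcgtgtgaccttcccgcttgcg
Mrpl32, chr13:14612988-14613287, minus strand: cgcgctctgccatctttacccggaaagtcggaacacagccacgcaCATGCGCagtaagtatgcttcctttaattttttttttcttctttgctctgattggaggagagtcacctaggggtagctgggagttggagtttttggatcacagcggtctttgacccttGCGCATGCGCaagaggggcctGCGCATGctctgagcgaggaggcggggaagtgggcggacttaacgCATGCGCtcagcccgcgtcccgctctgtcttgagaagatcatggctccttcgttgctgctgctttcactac
Mrpl41, chr2:24975049-24975348, minus strand: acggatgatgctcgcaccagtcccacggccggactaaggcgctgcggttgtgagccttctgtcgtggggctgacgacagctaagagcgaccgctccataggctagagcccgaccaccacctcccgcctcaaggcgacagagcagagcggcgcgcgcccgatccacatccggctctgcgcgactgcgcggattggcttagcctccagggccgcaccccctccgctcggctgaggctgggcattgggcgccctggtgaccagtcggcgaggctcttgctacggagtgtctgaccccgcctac
Mrpl53, chr6:83108858-83109157, plus strand: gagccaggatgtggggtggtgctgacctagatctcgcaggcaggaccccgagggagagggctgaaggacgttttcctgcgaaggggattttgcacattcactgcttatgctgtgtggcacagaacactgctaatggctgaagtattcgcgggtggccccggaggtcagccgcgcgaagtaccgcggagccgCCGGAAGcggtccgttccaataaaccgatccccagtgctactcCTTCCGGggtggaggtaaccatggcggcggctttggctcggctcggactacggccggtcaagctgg
Mrps10, chr17:47368947-47369246, plus strand: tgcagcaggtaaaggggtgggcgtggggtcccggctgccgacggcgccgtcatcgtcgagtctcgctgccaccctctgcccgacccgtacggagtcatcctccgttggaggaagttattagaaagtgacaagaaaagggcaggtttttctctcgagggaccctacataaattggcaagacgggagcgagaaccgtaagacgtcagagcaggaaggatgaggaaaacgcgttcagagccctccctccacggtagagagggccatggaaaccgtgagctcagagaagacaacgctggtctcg
Mrps18a, chr17:46110754-46111053, plus strand: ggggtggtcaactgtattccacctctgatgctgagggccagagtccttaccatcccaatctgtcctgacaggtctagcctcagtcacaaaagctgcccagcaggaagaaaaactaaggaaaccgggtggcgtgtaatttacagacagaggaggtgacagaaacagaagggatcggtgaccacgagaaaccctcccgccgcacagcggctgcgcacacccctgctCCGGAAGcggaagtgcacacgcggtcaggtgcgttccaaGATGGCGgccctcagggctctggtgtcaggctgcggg
The 34 members with at least 1 of the NRF1, ETS and YY1 strings and the 34 without had medians of 0.25 and 0.25 (log2 fold change) in Atg7KO tumours and of -0.62 and -0.51 in DKO tumours, a description with no test.

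The libraries held from 18292190 to 32354958 counted reads, the fewest being in DKO non-tumour replicate 2. Each member had between 171 and 6541 reads in a library. Levels are given as CPM, the usual reads of a gene relative to its library's total, with a scaling factor per library (TMM), and as CPM per kb of gene length where genes are set side by side. Reads of Atg7 were present in every library (88 to 401), as were those of Hmgb1 (101 ± 17.4 CPM in DKO non-tumour liver and 118 ± 12.3 CPM in Atg7KO non-tumour liver, SD, n = 3), and the counts cover whole genes, so they do not show a deletion of single exons. Transcripts of 4 Y chromosome genes summed to at most 2 reads in each Atg7KO library and to at least 1898 in each DKO library, so sex and genotype cannot be told apart here. The hepatocyte markers Alb, Apoa1, Ttr, Tat and Cps1 had reads in every group. Of these 5, 4 were lower and 1 higher in tumours than in non-tumour liver of each genotype. Their median log2 fold changes were -0.66 in Atg7KO and -0.81 in DKO. Their summed levels overlapped between tumours and non-tumour liver in both genotypes, and their part in the results was not tested. Hba-a1 and Hbb-bs, defining markers of red cells, had 0 reads in all groups.

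The mitoribosomal genes stood above the typical gene and below the genes of oxidative phosphorylation and of the cytosolic ribosome. Their median level was 29.7 CPM per kb, against 5.31 for all tested genes, 133 for 79 nuclear genes of oxidative phosphorylation and 414 for 81 cytosolic ribosomal protein genes. The highest means were those of Mrpl14, at 136 CPM per kb and a part of the large subunit core, Mrpl12, at 133, which forms the stalk that contacts translation factors, and Mrpl52, at 105. The lowest were Mrps25 at 3.12, Mrpl19 at 4.43 and Mrpl17 at 7.80, all with gene models of 5000 bases or more. The large subunit had a median of 30.0 CPM per kb and the small subunit 23.2. Mrpl52, a large-subunit protein specific to mitochondria, had 44.9, 32.9 and 33.4 CPM in Atg7KO non-tumour liver, 82.1, 38.1 and 46.6 in Atg7KO tumours, 53.5, 67.5 and 36.03 in DKO non-tumour liver and 16.4, 30.3 and 35.3 in DKO tumours. DKO tumour replicate 1 was its lowest library and Atg7KO tumour replicate 1 its highest. Mrpl19, which has a bacterial counterpart, had a far narrower spread, with 20.9, 19.01 and 19.9 CPM (Atg7KO non-tumour), 24.1, 22.4 and 28.5 (Atg7KO tumour), 21.6, 25.9 and 21.6 (DKO non-tumour) and 22.2, 17.7 and 22.3 (DKO tumour). In a working ribosome the proteins are needed in near equal numbers, yet these mRNA levels per length spanned from 3.12 to 136 CPM per kb.

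Of the 4 members whose levels varied most between libraries, 3 lie on chromosome 17. The SD of log2 CPM over the 12 libraries was 0.71 for Mrpl14, 0.63 for Mrps18a, 0.60 for Mrpl52 (chromosome 14) and 0.59 for Mrps10, and smallest for Mrps2 (0.17), a small-subunit protein of bacterial origin, and Mrpl19 (0.19). The median over the 77 members was 0.34. Mrps2 stood at 44.8, 47.9 and 40.3 CPM in the 3 Atg7KO non-tumour libraries, 44.8, 47.1 and 53.4 in Atg7KO tumours, 52.3, 41.6 and 49.8 in DKO non-tumour liver and 48.4, 36.7 and 53.9 in DKO tumours. Its groups overlapped throughout.

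**Figure D1:**
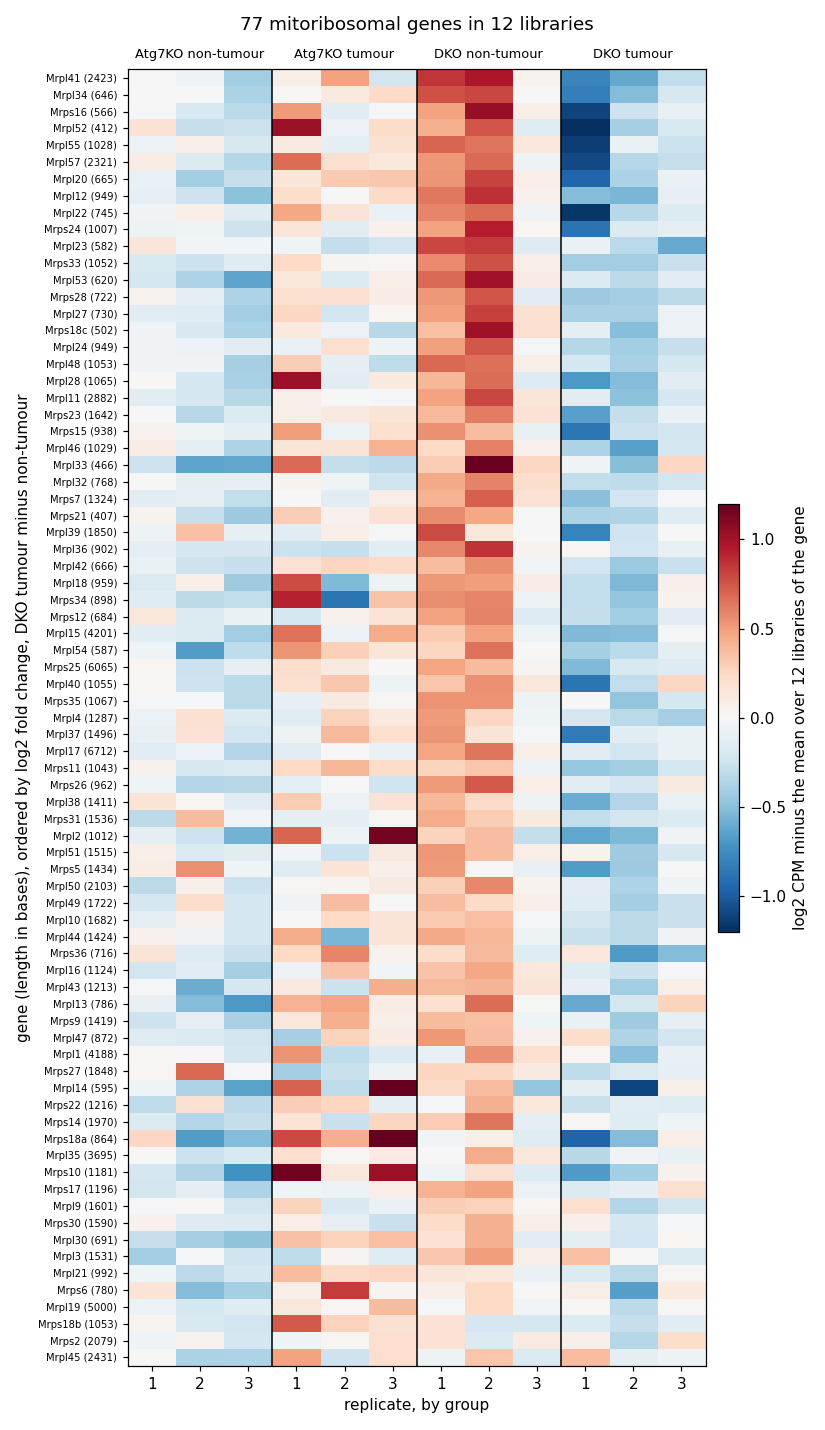
Heat map of the 77 mitoribosomal genes (rows, with gene length in bases) in 12 libraries (columns), as log2 CPM minus the mean of the gene over the libraries, with colours saturating at 1.2 in either direction. DKO non-tumour replicates 1 and 2 are high for most genes, DKO tumours low, and 4 genes of chromosome 17 (Mrpl14, Mrps18a, Mrpl2 and Mrps10) are high in Atg7KO tumour replicates 1 and 3.

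Most members stood higher in Atg7KO tumours and lower in DKO tumours than in non-tumour liver, but none passed the test. The mean over members of log2 CPM, centred on the 12 libraries, was -0.06, -0.14 and -0.29 in Atg7KO non-tumour liver and 0.22, 0.04 and 0.13 in Atg7KO tumours. It was 0.39, 0.52 and 0.00 in DKO non-tumour liver and -0.35, -0.36 and -0.10 in DKO tumours. The 3 tumours of each genotype lay on one side of its 3 non-tumour libraries, above for Atg7KO and below for DKO. DKO non-tumour liver was the most spread group, with an SD of 0.27, and its replicate 3 lay near 0. Genes were tested with edgeR's quasi-likelihood test over 14443 genes, with p adjusted by Benjamini-Hochberg and calls at an adjusted p under 0.05. Differences are given as log2 fold changes with their SE. No member was called in any of the 6 comparisons made, where edgeR called between 0 and 8 genes of all 14443. Between the genotypes the share called was 0.0485% higher and 0.00692% lower in non-tumour liver and 0.0346% and 0.0138% in tumours, and it was 0.0% in both directions for the tumour comparison within each genotype and for the interaction. What follows describes values that did not pass, unless another tool is named. In pieces of tissue, fewer cells of a type and less RNA per cell cannot be told apart.

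**Figure D2:**
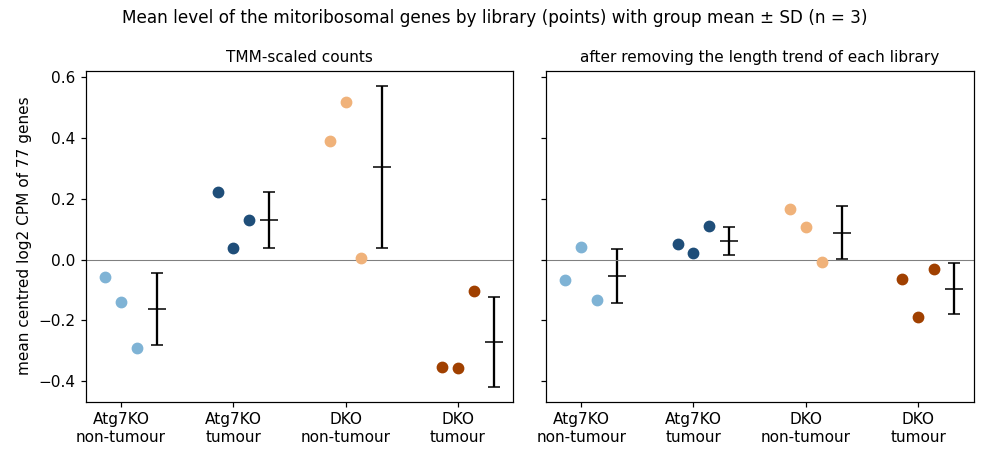
Mean centred log2 CPM of the 77 genes in each of the 12 libraries (points), with group mean ± SD (n = 3), from TMM-scaled counts (left) and after each library's trend on gene length was removed (right). The group means run from -0.27 to 0.30 on the left and from -0.10 to 0.09 on the right.

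In DKO tumours 76 of 77 members were below 0 against DKO non-tumour liver and 1 was above (49.1% and 50.9% of all genes), with a median log2 fold change of -0.56 and a range from -1.23 to 0.03. With an offset for gene length, described further on, that median was -0.16. An unadjusted p under 0.05 was reached by 48 members, all lower, against 10.3% of all genes in that direction. In 46 members all 3 tumours lay below all 3 non-tumour libraries, against 13.8% of all genes. Mrpl41, a large-subunit protein specific to mitochondria, had the lowest p. It stood at 42.7, 46.03 and 24.3 CPM in DKO non-tumour liver and at 13.6, 15.3 and 19.1 CPM in DKO tumours. Every tumour was below every non-tumour library, and the log2 fold change was -1.23 (SE 0.27, edgeR adjusted p = 0.117). Of the 2423 bases of Mrpl41, 1002 are shared with Dph7 on the other strand, and whether counting used strand is not given in the sources used here.

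Mrpl32 and Mrpl34 followed. Mrpl32, a large-subunit protein that is cut by the m-AAA protease before it joins the ribosome, stood at 30.8, 33.8 and 25.9 CPM in DKO non-tumour liver and 18.3, 18.1 and 19.3 CPM in tumours, a log2 fold change of -0.70 (SE 0.16). Its 3 tumours were the 3 lowest of the 6 libraries. Mrpl34, a small protein of the large subunit, had 44.5, 45.5 and 26.1 CPM in the 3 non-tumour libraries and 14.8, 18.3 and 22.8 CPM in the tumours (-1.05, SE 0.24). Here too the groups did not overlap, though non-tumour replicate 3 came close to the tumours. The edgeR adjusted p was 0.117 for each of the 3 genes. DESeq2, run as an alternative, called 25 members lower (adjusted p from 0.00568 to 0.047), and 0 higher, against 3.9% and 4.66% of the genes it tested, and limma voom with quality weights called 0 members and 0 genes of all. Without DKO non-tumour replicate 3 edgeR called 22 members lower and 597 genes in all.

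The members furthest from this pattern were Mrpl45 and Mrps2. Mrpl45, which anchors the mitoribosome to the inner membrane, was the 1 member above 0, at 43.5 ± 8.33 CPM in DKO non-tumour liver and 44.5 ± 8.44 CPM in tumours (SD, n = 3). Its sign turned when any 1 of DKO non-tumour replicates 1 and 3 and DKO tumour replicate 1 was left out (log2 fold changes of -0.02, -0.07 and -0.14). Mrps2 had a log2 fold change of -0.05 (SE 0.18). Markers of cycling cells, 4 of 4 above 0 in the same comparison, summed to 38.9 to 58.3 CPM in DKO non-tumour liver and 63.5 to 94.1 CPM in tumours, and those of B and plasma cells, 5 of 5 below 0, to 51.5 to 151 and 44.3 to 54.3 CPM. Macrophage markers, 4 of 5 below 0, summed to 562 to 643 CPM beside 370 to 495 CPM in tumours, and T and NK cell markers, 5 of 5 below 0, to 17.2 to 26.2 and 11.1 to 17.1 CPM. The macrophage, T and NK cell and cycling sums did not overlap between the groups. Their part in the result was not tested.

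In Atg7KO tumours 69 of 77 members were above 0 and 8 below (49.7% and 50.2% of all genes), with a median of 0.26 and a range from -0.51 to 1.26. With the length offset the median was 0.11. At an unadjusted p under 0.05, 13 were higher (8.04% of all genes) and 1 was lower (8.74%). In 27 members all 3 tumours lay above the non-tumour libraries (11.6%), and in 2 they lay below (11.9%). Mrps10, a small-subunit protein of bacterial origin that sits in the head of the subunit, led with 35.9, 32.1 and 24.99 CPM in the 3 non-tumour libraries and 92.3, 45.3 and 84.9 CPM in the tumours. Tumour replicates 1 and 3 stood about alike and well above replicate 2, which was itself above every non-tumour library. Its log2 fold change was 1.26 (SE 0.28, edgeR adjusted p = 0.112).

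Mrpl30, of the large subunit, was the most even of the leading genes. It had 52.3, 48.1 and 45.3 CPM in Atg7KO non-tumour liver and 80.7, 76.5 and 81.1 CPM in the tumours, a log2 fold change of 0.71 (SE 0.17, edgeR adjusted p = 0.119). All 3 tumours lay in a narrow band above all 3 non-tumour libraries. Mrps18a, a large-subunit protein with 2 close relatives in the small subunit, Mrps18b and Mrps18c, had 66.4, 35.2 and 38.9 CPM in the 3 non-tumour libraries and 96.7, 75.5 and 131 CPM in the tumours (1.11, SE 0.31, edgeR adjusted p = 0.16). Its groups did not overlap, but non-tumour replicate 1 stood near tumour replicate 2. DESeq2 called these 3 genes higher (1.72% of the genes it tested) and 0 members lower (2.31%). By limma voom with quality weights the calls were these 3 and Mrpl2, higher (0.727%), with 0 lower (1.57%). Stellate cell and fibroblast markers stood lower in the same tumours, with 6 of 6 below 0. They summed to 383 to 696 CPM in non-tumour liver and 190 to 244 CPM in tumours. Of the bile duct markers 3 of 5 were below 0 and 2 above, with a median log2 fold change of -2.29. Their sums ran from 444 to 1173 CPM in non-tumour liver and from 436 to 6466 CPM in the tumours. The part of either list in the result was not tested.

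Mrps27 stood the other way. This protein of the small subunit, which binds mitochondrial RNA, had 19.6, 30.9 and 19.03 CPM in Atg7KO non-tumour liver and 14.5, 15.95 and 18.5 CPM in tumours. All 3 tumours were below all 3 non-tumour libraries, the highest of which was replicate 2, and the log2 fold change was -0.51 (SE 0.21, edgeR adjusted p = 0.251), or -0.24 without that replicate. In DKO it stood at 23.1, 22.9 and 20.7 CPM in non-tumour liver and at 15.6, 17.1 and 17.9 CPM in tumours, again without overlap (-0.39, SE 0.21). It was the 1 member of 77 to stand lower in tumours of both genotypes without overlap, against 1.82% of all genes, and 0 members stood higher in both, against 1.92%. Its exons share 314 bases with 6430562O15Rik on the other strand.

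Over both genotypes together the members' median tumour difference was -0.16, with 14 above and 63 below 0 (51.2% and 48.8% of all genes). With the length offset the median was -0.063, with 27 above and 50 below 0. At an unadjusted p under 0.05, 1 was higher (10.8% of all genes) and 9 were lower (10.5%), and with the offset 6 were higher (11.5%) and 3 lower (10.1%). Mrpl32 (-0.36, SE 0.11), Mrps27 (-0.45, SE 0.15) and Mrpl23 (-0.55, SE 0.19) had the lowest p among members below 0, with edgeR adjusted p of 0.115, 0.123 and 0.135. Above 0 the lowest p were those of Mrps10, Mrps18a and Mrpl30, all of which stood higher in Atg7KO tumours and not in DKO tumours.

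Between the genotypes the members stood higher in DKO than in Atg7KO non-tumour liver. This comparison uses the same non-tumour libraries as both tumour comparisons, so its values are not independent of theirs, and the genotypes also differ in sex. Of the 77, 75 were above 0 (46.1% of all genes), with a median of 0.50 (0.10 with the length offset), and 37 had an unadjusted p under 0.05 (7.37%) while 0 were lower at that threshold (7.69%). In 43 members the groups did not overlap (11.6%). Mrpl53, a large-subunit protein specific to mitochondria, led with 25.5, 22.9 and 19.1 CPM in Atg7KO and 47.2, 59.4 and 31.6 CPM in DKO non-tumour liver, a log2 fold change of 1.03 (SE 0.22, edgeR adjusted p = 0.226). DKO replicates 1 and 2 were far above the others, and replicate 3 was the lowest of its group but above every Atg7KO library. Mrpl11, which belongs to the site where GTPase factors bind, had 32.3, 30.8 and 28.1 CPM in Atg7KO and 49.5, 61.9 and 39.2 CPM in DKO (0.72, SE 0.19). Mrpl27, near the peptidyl transferase centre, had 30.9, 30.5 and 25.3 CPM in Atg7KO and 47.5, 59.6 and 38.2 CPM in DKO (0.74, SE 0.20). For both, every DKO library was above every Atg7KO library. DESeq2 called Mrpl11 and Mrpl53 (0.605% of its genes), and limma voom with quality weights called 15 members higher (2.34%) and 0 lower (1.54%). Endothelial markers stood the other way in the same libraries, with 5 of 5 below 0 and summed levels of 204 to 259 CPM in Atg7KO against 148 to 199 in DKO. Cycling markers, 4 of 4 below 0, summed to 60.2 to 143 CPM in Atg7KO and 38.9 to 58.3 CPM in DKO. The part of either in the result was not tested.

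Among tumours the direction was the opposite. In DKO tumours 72 of 77 members were below 0 against Atg7KO tumours and 5 above (49.7% and 50.3% of all genes), with a median of -0.39 (-0.15 with the length offset). There were 29 with an unadjusted p under 0.05, all lower (8.27%, against 8.34% of all genes higher), and 35 whose DKO libraries all lay below (10.3%), while 0 members had them all above (9.95%). This comparison shares the Atg7KO tumours with the one in which Mrps10 and Mrps18a had low p-values, and they had the lowest here. Mrps10 had 25.7, 31.1 and 42.9 CPM in DKO tumours (-1.16 against Atg7KO tumours, SE 0.28, edgeR adjusted p = 0.135), and Mrps18a had 28.7, 39.1 and 59.3 CPM (-1.25, SE 0.31, edgeR adjusted p = 0.145). The groups did not overlap for either gene. Mrps11, a small-subunit protein beside the messenger RNA exit, had 17.1, 19.02 and 16.8 CPM in Atg7KO and 10.6, 10.9 and 12.5 CPM in DKO tumours (-0.64, SE 0.18). DESeq2 called 4 members lower, Mrpl2, Mrps10, Mrps11 and Mrps18a, against 1.86% of its genes. Stellate cell and fibroblast markers, 6 of 6 above 0 in this comparison, summed to 190 to 244 CPM in Atg7KO and 251 to 423 CPM in DKO tumours. Cycling markers, 4 of 4 below 0, summed to 102 to 112 and 63.5 to 94.1 CPM. The part of either in the result was not tested, and neither overlapped between the groups.

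The difference between the 2 tumour effects was tested as an interaction, DKO minus Atg7KO. It was below 0 for 76 of 77 members (47.9% of all genes), with a median of -0.87 (-0.25 with the length offset). An unadjusted p under 0.05 was reached by 59 members, all lower (8.45%). In 17 members all tumours lay above the non-tumour libraries in Atg7KO and all lay below them in DKO, against 1.62% of all genes. Mrpl42, a large-subunit protein, had the lowest p. Its levels were 60.9, 54.5 and 53.2 CPM in Atg7KO non-tumour liver, 72.6, 77.02 and 75.9 in Atg7KO tumours, 83.3, 95.1 and 62.99 in DKO non-tumour liver and 55.02, 47.4 and 53.6 in DKO tumours. The interaction was -1.05 (SE 0.24, edgeR adjusted p = 0.175). Mrpl12, the stalk protein, had 113, 102 and 85.6 CPM in Atg7KO non-tumour liver, 139.6, 121 and 142 in Atg7KO tumours, 187, 221 and 125 in DKO non-tumour liver and 83.99, 82.8 and 113 in DKO tumours (-1.36, SE 0.32). Mrpl20, a large-subunit protein with a bacterial counterpart, had 36.5, 29.00 and 31.8 CPM in Atg7KO non-tumour liver, 42.6, 47.8 and 48.2 in Atg7KO tumours, 55.6, 67.7 and 40.8 in DKO non-tumour liver and 19.97, 29.6 and 36.5 in DKO tumours (-1.44, SE 0.34). For all 3 genes the tumours stood above in Atg7KO and below in DKO with no overlap. With the length offset all 3 interactions lay nearer 0, and that of Mrpl42 lost most of its size (values are given further on). The largest value without the offset was that of Mrpl14, -1.62 with an SE of 0.63, whose libraries overlapped in both genotypes. DESeq2 called 21 members, all lower (2.01% of its genes), and limma voom with quality weights called 0 members and 0 genes of all.

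The medians of the subunits and of the 2 origins were close to each other, and were not tested. In DKO tumours the median was -0.57 for the large and -0.54 for the small subunit, and -0.55 for proteins with a bacterial counterpart and -0.58 for those specific to mitochondria. In Atg7KO tumours the 4 values were 0.25, 0.27, 0.26 and 0.25 in the same order.

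The members are short genes, with a median length of 1053 bases against 2862 for all tested genes, and differences followed gene length across all genes. Over the 14443 genes Spearman's rho of log2 fold change with length was -0.25 in Atg7KO tumours, 0.49 in DKO tumours, -0.47 between genotypes in non-tumour liver, 0.36 between genotypes in tumours and 0.57 for the interaction (descriptions across genes, which are not independent replicates). The trend was steepest in DKO non-tumour replicate 2, the library with the fewest reads, where genes of 1000 bases were 0.49 (log2) above the average. Each member was therefore set beside other tested genes within 0.25 (log2) of its length and 0.5 of its log2 CPM, between 10 and 518 genes a member. In DKO tumours the medians of these like genes had a median of -0.46, and members were 0.15 lower than their like genes at the median, with 55 below and 22 above. In Atg7KO tumours the like genes stood at 0.23, and members were 0.06 higher, with 48 above and 29 below. Between genotypes the members differed from like genes by 0.08 in non-tumour liver and by -0.13 in tumours. For the interaction the difference was -0.20, with 58 below and 19 above.

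With an offset for the length trend of each library the members' medians kept their sign and lay nearer 0. The members' medians were 0.11 in Atg7KO tumours, -0.16 in DKO tumours, 0.10 and -0.15 between the genotypes in non-tumour liver and tumours, and -0.25 for the interaction. With the offset 13 members were lower and 1 was higher in DKO tumours at an unadjusted p under 0.05 (5.67% and 7.9% of all genes), and 9 were higher and 2 lower in Atg7KO tumours (8.0% and 8.09%). Between genotypes 11 were higher and 0 lower in non-tumour liver (4.33% and 4.81%), and 2 were higher and 11 lower in tumours (7.09% and 6.99%). No member was called. Of the 13 members lower in DKO tumours, 9 had gene models over 2000 bases. Members of 1000 bases or less had a median of -0.07 there with the offset, with 13 above and 18 below 0. Over the 77 members, Spearman's rho of the DKO tumour difference with length was 0.39 before the offset and -0.41 with it. Library means after the correction were -0.07, 0.04 and -0.13 in Atg7KO non-tumour liver, 0.05, 0.02 and 0.11 in Atg7KO tumours, 0.16, 0.11 and -0.01 in DKO non-tumour liver, and -0.06, -0.19 and -0.03 in DKO tumours. The Atg7KO groups then overlapped, and the DKO tumours stayed below the DKO non-tumour libraries by a narrow margin.

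**Figure D3:**
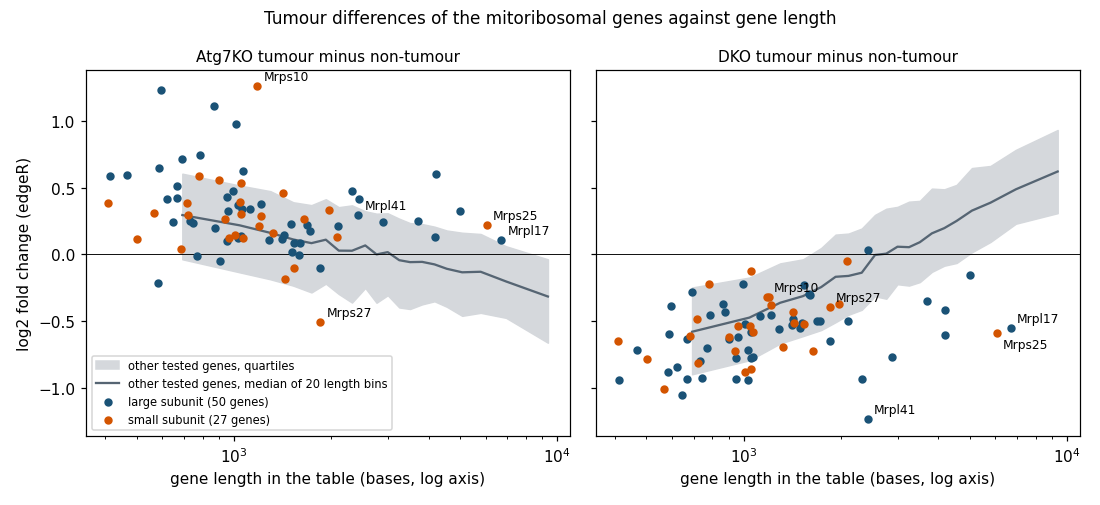
Log2 fold change (edgeR) of the 77 genes against gene length in bases (log axis), tumour minus non-tumour in Atg7KO (left) and DKO (right), over the median and quartiles of the other tested genes in 20 bins of length. Short members follow the other genes, while the long members on the right, such as Mrpl17 and Mrps25, lie below the other genes of their length in DKO tumours.

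The 12 members with gene models over 2000 bases did not follow the genes of their length. In DKO tumours their median was -0.53 while their like genes stood at 0.10, and 10 of the 12 were below their like genes. Between genotypes in non-tumour liver their median was 0.45 and that of their like genes -0.02, with 11 of 12 above. Mrpl17, the longest at 6712 bases, is a large-subunit protein of bacterial origin. It had 71.4, 79.98 and 53.9 CPM in DKO non-tumour liver and 47.1, 43.95 and 48.7 CPM in tumours, a log2 fold change of -0.55 (SE 0.17), or -1.03 with the length offset. All 3 tumours lay below the non-tumour libraries. Mrps25, a small-subunit protein of 6065 bases of which 3536 are shared with Nr2c2 on the other strand, had 25.9, 24.2 and 19.04 CPM in DKO non-tumour liver and 12.9, 16.4 and 16.7 CPM in DKO tumours (-0.59, SE 0.18, or -0.99 with the offset). Its groups were apart as well. With the offset 9 of the 12 had an unadjusted p under 0.05 in DKO tumours, all lower (5.67% of all genes). For 5 of the 12 (Mrpl1, Mrpl11, Mrpl15, Mrpl17 and Mrpl45) GENCODE M21 lists a coding transcript under 2000 bases beside a longer one. For Mrpl41 it lists coding transcripts of 401 and 776 bases only, so its place among the long members rests on the 2423 bases of the deposited table. The reverse held for some short members. Mrpl32, Mrpl47, Mrps16 and Mrps26 have 1 coding transcript each in GENCODE M21, of 3013, 3364, 2572 and 4278 bases. Their deposited lengths are 768, 872, 566 and 962 bases, and their like genes and offsets rest on these. Which transcript liver uses was not tested.

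Members on chromosome 17 had the higher values in Atg7KO tumours, a split made after values were seen and not tested. The 8 of them had a median of 0.80, against 0.24 for the 69 others. At an unadjusted p under 0.05, 5 of the 8 were higher (8.04% of all genes) and 0 lower (8.74%). Mrpl14, Mrps18a, Mrpl2 and Mrps10 lie within chr17:45686372-47378679 (mm10). Mrpl14 had 68.9, 55.1 and 45.7 CPM in Atg7KO non-tumour liver and 116, 57.7 and 225 CPM in tumours. Tumour replicate 3 was the highest of all libraries, and replicate 2 overlapped the non-tumour group. The 32 other tested genes of this stretch had a median of 1.03 in Atg7KO tumour replicate 3, 0.48 in replicate 1 and -0.13 in replicate 2. Vegfa, 1 of the 32 and named after its values were seen, had 0.90, -0.09 and 0.59 in the same order. These are length-corrected log2 CPM relative to the mean of the 3 non-tumour libraries. In DKO tumours the same 32 genes stood at -0.04, -0.20 and 0.34. Flanks of the same width lay above 0 as well, with medians of 0.64 before (15 genes) and 0.66 after (27 genes) in Atg7KO tumour replicate 3, and of 0.51 and 0.50 in replicate 1. All 716 other genes of chromosome 17 together had a median of 0.01 in Atg7KO tumour replicate 3 and of 0.54 in replicate 1. The DNA was not measured, and no copy number is given here.

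**Figure D4:**
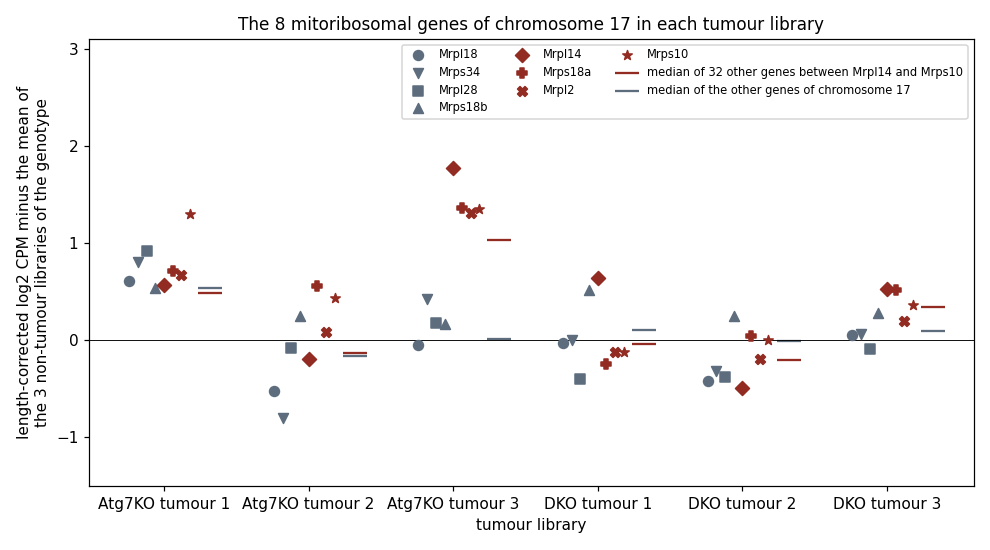
The 8 mitoribosomal genes of chromosome 17 in each of the 6 tumour libraries, as length-corrected log2 CPM minus the mean of the 3 non-tumour libraries of the genotype, with bars for the median of 32 other genes between Mrpl14 and Mrps10 and of all other genes of the chromosome. The 4 genes of the stretch (red) reach 1.31 to 1.77 in Atg7KO tumour replicate 3, where the other genes of the stretch have a median of 1.03.

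Members and the other genes of their chromosome were also set side by side in each tumour library. In DKO tumour replicate 1 the 3 members on chromosome 16 (Mrpl39, Mrpl40 and Mrps6) had a median of -0.61 and the other 468 genes there -0.49. On chromosome 4 (Mrpl20, Mrpl37, Mrpl50 and Mrps15) the values were -0.55 and -0.49, and on chromosome 14 (Mrpl52, Mrpl57 and Mrps16) -0.83 and -0.45. On chromosome 13 the 5 members had 0.17 and the other genes 0.27. The signs differed on chromosome 6 (-0.28 for 7 members and 0.14 for the other genes), chromosome 2 (-0.14 and 0.16) and chromosome 17 (-0.08 for 8 members and 0.11). They differed as well on chromosome 7 (-0.04 for 6 members and 0.15) and chromosome 15 (-0.18 for Mrpl13 alone and 0.12). Over the 17 chromosomes with a member, Pearson's r between the median of the members and that of the other genes was 0.91 in this library, 0.81 in Atg7KO tumour replicate 1 and 0.86 in DKO tumour replicate 3. It was 0.02 in DKO tumour replicate 2, 0.26 in Atg7KO tumour replicate 2 and 0.52 in Atg7KO tumour replicate 3. Spearman's rho was 0.92, 0.50 and 0.73 in the first 3 of these libraries and -0.24, 0.36 and 0.38 in the others, in the same order. Some of the members' medians rest on 1 to 3 genes. These are descriptions over chromosomes of single libraries. With the chromosome's median removed, a setting added after the data were seen, the length-corrected median was 0.12 in Atg7KO tumours (0.10 before) and -0.15 in DKO tumours (-0.16 before). The 4 members on chromosome 5, which also carries Hmgb1, had medians of 0.17 in Atg7KO and -0.56 in DKO tumours from the fit without a length offset. With the offset the medians were 0.12 and -7.545e-05, with 2 members above and 2 below 0 in DKO tumours.

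Across libraries the members varied together before the length trend was removed and much less after it. The median Pearson r over 2926 pairs of members and 12 libraries was 0.62 from TMM-scaled values and 0.14 after the correction, pairs sharing the same libraries and depth. Mrpl12 was the member closest to the mean of all members, with r = 0.99. Mrps27 (0.23), Mrps2 (0.26), Mrpl3 (0.33) and Mrpl45 (0.39) followed it least. Mrpl3, near the peptidyl transferase centre, had 17.5, 22.97 and 19.8 CPM in Atg7KO non-tumour liver, 18.98, 23.8 and 21.1 in Atg7KO tumours, 29.3, 33.1 and 24.7 in DKO non-tumour liver and 30.04, 23.4 and 20.8 in DKO tumours, and was the member furthest above 0 between genotypes in tumours (0.21, SE 0.20). Mrps5, of the small subunit, stood at 34.4, 47.4 and 31.2 CPM (Atg7KO non-tumour), 29.3, 36.3 and 33.8 (Atg7KO tumour), 46.2, 32.8 and 30.4 (DKO non-tumour) and 20.4, 23.99 and 32.3 (DKO tumour). It was 1 of the 2 members below 0 between genotypes in non-tumour liver (-0.05, SE 0.24), and its groups overlapped there. Mrpl36, a very small large-subunit protein, stood at 19.6, 18.6 and 18.6 CPM (Atg7KO non-tumour), 17.8, 17.6 and 19.5 (Atg7KO tumour), 31.9, 38.9 and 21.9 (DKO non-tumour) and 21.5, 18.2 and 20.1 (DKO tumour). Its DKO non-tumour libraries were its 3 highest. Of all other tested genes the most like this mean were Uqcrh (r = 0.98) and Uqcr10 (0.96), both of complex III, Slc7a6os (0.96), Romo1 (0.96), which encodes a small membrane protein of mitochondria, and Timm10b (0.95) of protein import. After the length correction the most like genes were Preb (0.91), Phb2 (0.86), the prohibitin of the inner membrane, Mtch2 (0.84), Ppp1r15b (0.84) and Eva1a (0.84).

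Genes for the same machine with other names lay on the same side of 0 as most members in both tumour comparisons. The 6 tested subunits named otherwise had a median of -0.96 in DKO tumours, with 5 of 6 below 0, and 0.20 in Atg7KO tumours, with 6 of 6 above. With the length offset the medians were -0.48 and 0.15, beside -0.16 and 0.11 for the members, a difference that was not tested. Ict1, the peptidyl-tRNA hydrolase built into the large subunit, stood at 42.6 ± 14.3 CPM in DKO non-tumour liver and 20.9 ± 0.916 CPM in tumours (SD, n = 3), a log2 fold change of -1.02 (SE 0.22). Aurkaip1, of the small subunit, stood at 81.6 ± 21.6 and 38.5 ± 10.2 CPM (-1.09, SE 0.26). The edgeR adjusted p was 0.117 for both, and their groups did not overlap. Ptcd3, also of the small subunit, was the 1 above 0 (0.08, SE 0.20).

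The rest of the mitochondrial translation pathway also lay mostly below 0 in DKO tumours, and no gene of it was called by edgeR in either tumour comparison. The lists hold longer genes, were not tested against the members, were written with earlier results known and are described by counts and medians alone. In DKO tumours 21 of 24 genes for ribosome assembly and rRNA modification were below 0 (median -0.37), 15 of 17 mitochondrial tRNA synthetases (-0.30), 11 of 12 translation factors (-0.29) and 14 of 20 genes of mitochondrial DNA transcription and RNA handling (-0.18). With the length offset these medians were -0.20, -0.23, -0.20 and -0.09, beside -0.16 for the members. Tefm, the elongation factor of mitochondrial transcription, stood at 16.3 ± 1.26 CPM in DKO non-tumour liver and 8.40 ± 2.23 CPM in tumours (-0.96, SE 0.21, edgeR adjusted p = 0.117). Mtrf1, a mitochondrial release factor, stood at 14 ± 1.82 and 7.33 ± 1.60 CPM (-0.94, SE 0.24, edgeR adjusted p = 0.117). In both the groups did not overlap. Of 9 regulators of mitochondrial biogenesis 8 were above 0 in DKO tumours (50.9% of all genes), with a median of 0.13, but 5 were with the length offset (0.11). Myc stood at 18.4 ± 3.03 and 39.4 ± 24.6 CPM (1.10, SE 0.43). Of 10 genes for membrane insertion and quality control 6 were below 0 (-0.25), and 5 with the offset (0.04).

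In Atg7KO tumours the same lists lay near 0, from -0.01 for translation factors to 0.13 for membrane insertion and quality control. Fastkd2, which handles mitochondrial ribosomal RNA, stood at 18.3 ± 0.229 CPM in the 3 non-tumour libraries and 29.3 ± 5.39 CPM in the tumours (0.68, SE 0.20, edgeR adjusted p = 0.171). Gfm2, the mitochondrial factor that recycles ribosomes, stood at 42.2 ± 8.52 and 26.4 ± 3.07 CPM (-0.67, SE 0.19, edgeR adjusted p = 0.153). The regulator Ppargc1a had 16 ± 4.74 CPM in the 3 non-tumour libraries and 7.11 ± 2.55 CPM in the tumours (-1.17, SE 0.51, edgeR adjusted p = 0.28). For these 3 genes tumours and non-tumour liver did not overlap.

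The respiratory chain and the cytosolic ribosome were set beside the members. In DKO tumours the 79 nuclear genes of oxidative phosphorylation had a median of -0.79, below their own like genes by 0.29 at the median, and the 81 cytosolic ribosomal protein genes had -0.38, above theirs by 0.39. The members, at 0.15 below, lay between them. Like genes of each list could include genes of the other list, so these gaps are not independent. Those of the members could include both lists. The median number of like genes was 25 for oxidative phosphorylation, 13 for the cytosolic ribosome and 131 for the members. Only 78 of the 79 and 80 of the 81 genes had any. In Atg7KO tumours the differences from like genes were 0.29 for the cytosolic ribosome, 0.06 for the members and -0.07 for oxidative phosphorylation. With the length offset the DKO tumour medians were -0.21 for oxidative phosphorylation, -0.16 for the members and 0.23 for the cytosolic ribosome. The lists were not tested against each other.

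**Figure D5:**
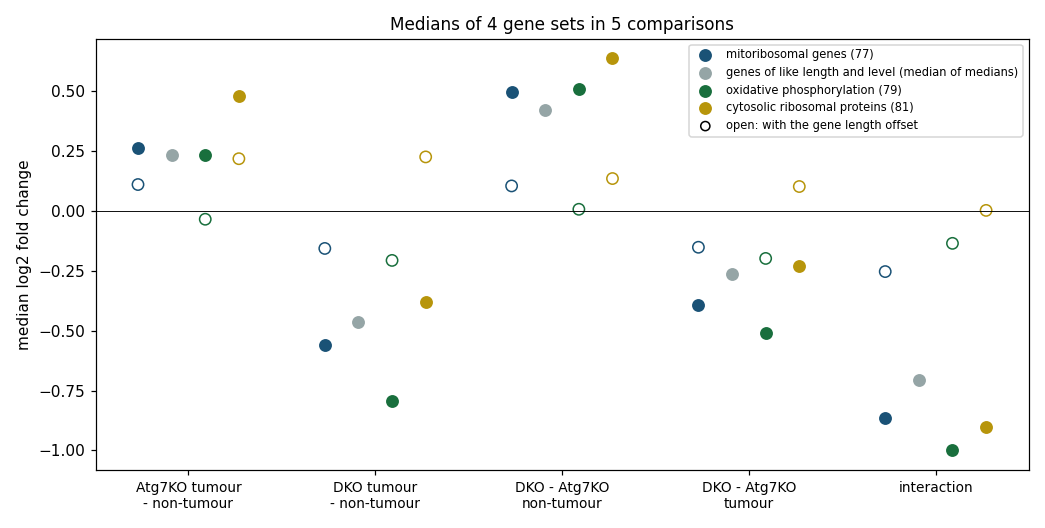
Median log2 fold change of the mitoribosomal genes, of genes of like length and level, of oxidative phosphorylation genes and of cytosolic ribosomal protein genes in 5 comparisons, from the plain fit (filled) and with the gene length offset (open). In DKO tumours the members move from -0.56 to -0.16 and the cytosolic ribosomal protein genes from -0.38 to 0.23.

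Exons of 10 members overlap another gene, 7 of them on the opposite strand, so their counts may hold reads of both, which was not measured. Besides those named, the opposite-strand pairs are Mrpl19 with Gcfc2 (1145 bases), Mrpl24 with Rrnad1 (355), Mrpl48 with Rab6a (106) and Mrpl49 with Syvn1 (89). GENCODE M21 lists pseudogenes for Mrpl23, Mrpl48 and Mrps36. Mrpl23, which sits at the exit of the nascent chain, was beside Mrps27 the other member below its non-tumour libraries in all 3 Atg7KO tumours, at 11.5, 10.2 and 10.1 CPM in Atg7KO non-tumour liver and 10.02, 8.52 and 8.87 CPM in Atg7KO tumours (-0.21, SE 0.26), and how its reads were split from the pseudogene was not tested.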

How the data were processed

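Liver RNA of 12 samples was sequenced, 3 in each of 4 groups taken from the labels. The deposited table holds whole-number read counts per gene, not normalized. The tools named, per the submitters' processing notes, are edgeR 3.20.8, Subread 1.5.3 with its featureCounts, STAR 2.5.3a and bcl2fastq (roles and order not stated), on build mm10. The strand setting, the annotation release and the library kit are not given in the sources used here.

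From these counts TMM factors were computed and 1 edgeR model (4.0.16, quasi-likelihood F, two-sided) was fitted to 14443 genes kept by filterByExpr (minimum count 10, minimum total count 15). P-values were adjusted by Benjamini-Hochberg over these genes. Tumours were compared with non-tumour liver within Atg7KO, within DKO and averaged over both, DKO with Atg7KO within non-tumour liver and within tumours, and the interaction was tested. Length-corrected values had a loess trend (span 0.5) of log2 CPM on gene length removed per library; the offset fit used the same trend. The prior count of log2 CPM was 2. The script was tested on simulated data.

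Alternatives were RLE size factors, DESeq2 1.42.0, limma 3.58.1 (voom with quality weights), no filter, the length offset, the replicate number as a block, a fit to only the groups compared, leaving out each library, other prior counts and wider or narrower like-gene windows. The promoters came from RefSeq GRCm38.p6 and exon overlaps from GENCODE M21; longer forms of the NRF1 and YY1 motifs, searched first, are not reported. Members named with values in every library were, per comparison, the 3 with the lowest p in each direction, with those at the extremes of level, spread and interaction; other members and genes were chosen after their values were seen. The members and lists were chosen with earlier results of these data known. At a common biological coefficient of variation of 0.365, and with 171 reads or more per member and library, the spread between samples limits precision more than counting does.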

Additional observations from a re-analysis of the deposited data

Results flagged for a closer look

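The tumour effect on the mitoribosomal genes pointed in opposite directions in the 2 genotypes. For the mean centred log2 CPM of the 77 genes every Atg7KO tumour lay above, and every DKO tumour below, the non-tumour libraries of its genotype, and the effects differed by -0.87 (DKO minus Atg7KO). No test of this mean was made. After the length correction the Atg7KO groups overlapped and the difference was -0.30. Of the 17 genes that did the same in every library, 7 are among those described by their values in the report: Mrpl11 (interaction log2 fold change -1.004), Mrpl12 (-1.36), Mrpl20 (-1.44), Mrpl34 (-1.30), Mrpl42 (-1.05), Mrpl53 (-1.26) and Mrps11 (-0.93). With the length offset these were -1.01, -0.61, -0.53, -0.35, -0.11, -0.26 and -0.26 in the same order. None of these interactions passed in edgeR, where the lowest adjusted p among the members was 0.175.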

How the results depend on the processing

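edgeR called 0 members in all 6 comparisons under RLE size factors, no filter and the length offset, in the 4 run with the replicate block, and in the 4 run on only the groups compared. DESeq2 called 3 members in Atg7KO tumours, 25 in DKO tumours, 2 and 4 between genotypes in non-tumour liver and in tumours, and 21 for the interaction, with 611, 1102, 189, 551 and 408 genes in all and 1236 for tumours of both genotypes. limma voom with quality weights called 4 members and 332 genes in Atg7KO tumours, 15 and 561 between genotypes in non-tumour liver, 37 genes between genotypes in tumours and 510 for tumours of both genotypes. Other counts of all genes moved too: RLE 12 and no filter 11 between genotypes in tumours, 14, 21 and (length offset) 8 for both genotypes, and only the groups compared 1 in DKO tumours. The length offset brought the members' medians to -0.16 in DKO tumours, 0.10 and -0.15 between genotypes and -0.25 for the interaction. Whether same-numbered tumour and non-tumour libraries share a mouse is not stated. Their deviations correlated at 0.016 to 0.332 (6 of 6 above 0, against 9 of 12 other pairs below 0), short of the 0.1 required of every pair. Of 6 tumour libraries 3 correlated best with their own number, among 3 candidates each. Deviations from a group mean cancel within the group, so the signs of the other pairs follow in part from the same-number pairs. Pairing therefore stays undecided. The block, run only within genotypes since numbers nest in them, gave 3 genes in Atg7KO tumours, 1 for the interaction and 24 for both genotypes. Leaving out 1 library gave 0 to 22 members and 0 to 597 genes in DKO tumours (22 and 597 without DKO non-tumour replicate 3), 0 to 3 genes in Atg7KO tumours, 7 to 30 between genotypes in tumours and 0 to 133 for both genotypes. The members' medians kept their sign in each such fit, from 0.20 to 0.30 in Atg7KO tumours, -0.70 to -0.46 in DKO tumours, 0.37 to 0.64 and -0.45 to -0.30 between genotypes, and -1.0 to -0.75 for the interaction. Signs turned for 3 genes near 0. Mrpl45 in DKO tumours was -0.078 by voom and -0.14 to 0.22 with a library left out. Mrps27 between genotypes was 0.15 by voom in non-tumour liver (-0.19 to 0.20), -0.025 to 0.16 in tumours, and -0.12 by voom for the interaction (-0.15 to 0.24). Mrps5 was -0.31 to 0.013 in Atg7KO tumours and 0.16 by voom between genotypes in non-tumour liver (-0.23 to 0.15). Other prior counts and like-gene windows turned no sign. The cause was not tested.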
